A study of Mus musculus with 6 samples.

Results

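SR proteins and hnRNPs are the main families of RNA-binding proteins that decide which exons of a pre-mRNA are kept. The genes described here were chosen by name: the 11 numbered Srsf genes, the 20 genes whose symbol starts with Hnrnp, and 13 further splicing factors (Tra2a, Tra2b, Srrm1, Srrm2, U2af1, U2af2, Sf3b1, Tardbp, Esrp1, Esrp2, Mbnl1, Mbnl2 and Qk). They make 44 of the 31641 genes in the count table. Another 2 Hnrnp-named pseudogenes were dropped. All 44 passed the filter on low counts.

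The 6 RNA-seq libraries came from E14 cells, an embryonic stem cell line of the mouse. The 3 KD libraries carry the genotype label Nat10 KD and came from cells given doxycycline (Dox), and the 3 CON libraries are labelled Nat10 WT and came from cells without it. Nat10 is an RNA acetyltransferase that makes N4-acetylcytidine, and the series title concerns its role in pluripotency. The drug was given to every KD library and to no CON library, so its effect and that of the knockdown cannot be told apart. The labels name neither the knockdown construct nor separate cultures for the replicates. The p-values therefore reflect the spread among 3 libraries a group, which may be technical in origin.

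In textbook terms, SR proteins carry RNA recognition motifs and a tail rich in arginine-serine repeats. They bind enhancer sequences in exons and help the U1 and U2 particles recognise nearby splice sites. hnRNPs coat the nascent transcript and often act in the opposite direction by binding silencers. Genes of both families commonly hold a poison exon that sends part of the transcript to decay. A count per gene cannot separate such isoforms from the coding mRNA.

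The libraries held 33770755 to 39524273 counts in KD and 35304394 to 39450202 counts in CON. Nat10 itself had 1100, 1164 and 1050 counts in KD, against 4960, 5496 and 4877 in CON, a 5.44-fold fall (edgeR adjusted p = 4.21e-14). Among marker genes of embryonic stem cells, 8 of 8 were detected and fell, with a summed level of 1551 to 1663 CPM in KD and 5234 to 5299 CPM in CON. CPM is the count divided by the library total in units of 1000000, after scaling of libraries by the TMM method. These are bulk libraries, in which fewer cells of a type and less RNA per cell cannot be told apart. The summed level was 83.4 to 92 CPM in KD and 144 to 146 CPM in CON for 7 neuronal markers, and 27.6 to 31.6 CPM against 15.1 to 18.1 CPM for 6 fibroblast markers. Of the neuronal markers 4 rose and 2 fell, and of the 4 fibroblast markers that passed the filter 3 rose and 1 fell. The neuronal falls were Stmn2 (4.34-fold, 21.8 CPM in KD, 94.6 CPM in CON) and Tubb3 (6.59-fold, 5.64 and 37.2 CPM). Stmn2 and Tubb3 made up most of the neuronal sum in CON. The neuronal rises were Syp (32.1-fold, 29.1 CPM in KD, 0.904 CPM in CON), Snap25 (7.96-fold), Map2 (2.77-fold) and Syt1 (1.8-fold). The lower neuronal sum thus does not describe most of its genes. The summed level was 43 to 44.2 CPM in KD against 44.6 to 49.8 CPM in CON for 7 endoderm markers, most of it Dab2. For 8 trophoblast markers it was 1067 to 1112 CPM against 1133 to 1185 CPM, most of it Krt8 and Krt18. Among endoderm markers Sox7 fell 13.3-fold (0.129 CPM in KD, 1.79 CPM in CON) and Foxa2 rose 3.6-fold (0.571 and 0.157 CPM). The other 5 did not pass. Of the trophoblast markers 5 fell, led by Hand1 (5.79-fold), and 2 rose. Among the fibroblast markers, the collagen gene Col1a2 rose 10.8-fold, with 16.6 CPM in KD and 1.53 CPM in CON. Col1a1 rose 1.77-fold and Pdgfra 1.72-fold. Thy1 fell 2-fold, with 5.46 CPM in KD and 10.9 CPM in CON. Col3a1 averaged 0.0182 CPM in KD and 0.0682 CPM in CON. All 31641 genes of the count table have counts in some library, so no marker among them could be at 0 in all libraries. Dcx, Lum, Dcn and Ttr are not among those genes, and whether they had no reads cannot be told. The part of other cell types in the results below was not tested.

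Most of the splicing factor genes were lower in KD, by modest amounts. Of the 44, 34 fell, 5 rose and 5 did not pass an adjusted p of 0.05 in edgeR's quasi-likelihood test across all genes. Over all 18019 genes tested, 30.8% fell and 32.2% rose, against 77.3% and 11.4% of the 44. The median log2 fold change, KD over CON, was -0.40 for the 44 genes and 0.02 for all genes tested. The changes ran from -1.02 for Esrp1 to 1.45 for Srsf12. Only 9 of the falls exceeded 1.5-fold and only Esrp1 exceeded 2-fold.

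The count depends on how libraries are scaled. Where libraries were scaled by total count alone, 24 of the 44 genes fell and 9 rose, while 19.6% of all genes fell and 46% rose. That scaling moved the median of all genes from 0.02 to 0.25 on the log2 scale and the median of the 44 from -0.40 to -0.17. A change of scaling moves all genes by a like amount, so the distance between the medians stayed about the same by construction.

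**Figure D1:**
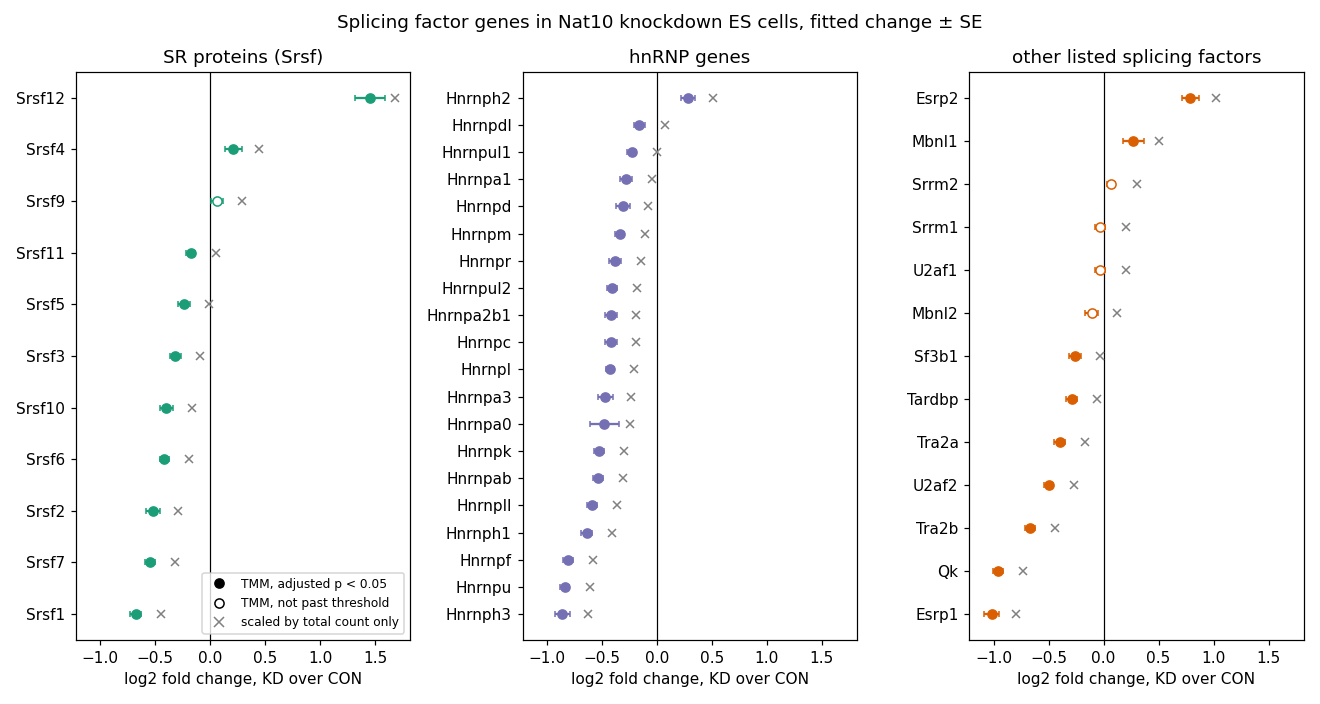
Fitted log2 fold change, KD over CON, of each of the 44 genes (x axis, log2 units), with its standard error as a bar, from 3 KD and 3 CON libraries. Filled circles passed an adjusted p of 0.05, open circles did not, and crosses give the value with libraries scaled by total count only, which lie to the right of every circle. Of the 20 hnRNP genes, Hnrnph2 is the sole one to the right of 0 in the TMM-scaled fit.

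The 44 genes are among the better expressed ones, which bears on that comparison. In FPKM, the authors' length-scaled unit, 32 of them averaged at least 20 over the 6 libraries. Of these 32, 28 fell and 0 rose, with the other 4 short of the threshold. Among all tested genes at that level, 54.8% fell and 25.2% rose. Of the 12 under 20 FPKM, 6 fell and 5 rose, against 26.1% and 33.5% of all tested genes at that level. Of all tested genes averaging 10 CPM or more, 41.3% fell and 34.5% rose, or 25.5% and 52.5% with scaling by total count only. The levels of 20 FPKM and 10 CPM were chosen after the data were seen.

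The order of levels changed little. Hnrnpa1 was the most abundant per length, at 363 FPKM in KD and 375 FPKM in CON. Mbnl1 and Srsf12 were the least, at 1 and 2.86 FPKM in KD and 0.707 and 0.894 FPKM in CON. Hnrnpf held place 5 in KD with 141 FPKM and place 2 in CON with 212 FPKM. Srsf1 held place 24 in KD with 42.5 FPKM and place 17 in CON with 58 FPKM. FPKM values are scaled by library total, not by TMM.

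Library KD-3 stood apart from the other KD libraries. Of the 44 genes, 32 were higher in KD-3 than in KD-1 and KD-2, and 10 were lower. That count was not taken over all genes. The shift, log2 CPM in KD-3 over the mean of KD-1 and KD-2, had a median of 0.12 for the 44 genes. Over 10015 genes averaging 10 CPM or more, its median was 0.00 and its SD 0.17. CON-1 set against CON-2 and CON-3 gave an SD of 0.11. The shift moved with base composition. Across the 44 genes, the Spearman correlation of the KD-3 shift with the GC content of the longest annotated transcript was -0.66. Across 10015 genes averaging 10 CPM or more it was -0.74. The points share their libraries, so these values are descriptions. Hnrnpa0, at 55.4% GC, was the farthest, 0.61 lower on the log2 scale in KD-3, and Hnrnpa3, at 39.9% GC, was 0.31 higher. CON-1 set against CON-2 and CON-3 gave a correlation of -0.58 across the same 10015 genes. Without KD-3, 36 of the 44 genes fell and 5 rose, and the median was -0.43. In that fit, 31.8% of all genes fell and 32.2% rose. DESeq2 called 34 of the 44 lower and 4 higher, against 23.3% and 23.1% of the 23053 genes it tested.

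**Figure D2:**
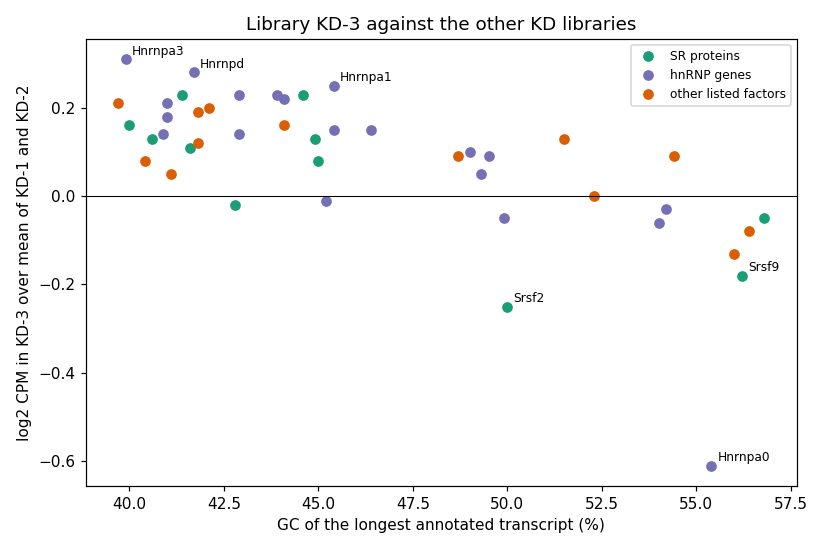
Each point is 1 of the 44 genes, placed by the GC content of its longest annotated transcript (x axis, %) and by log2 CPM in KD-3 over the mean of KD-1 and KD-2 (y axis). Genes near 40% GC lie above 0 and most genes over 53% GC lie below it, with Hnrnpa0 at -0.61.

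Among SR proteins, 8 of 11 genes fell, 2 rose (Srsf12 and Srsf4) and Srsf9 did not pass. As shares, 72.7% fell and 18.2% rose, against 30.8% and 32.2% of all genes tested. Of all tested genes averaging at least 20 FPKM, 54.8% fell and 25.2% rose. The summed level of the SR protein genes was 1968, 2021 and 2121 CPM in KD, against 2623, 2588 and 2605 CPM in CON. When scaled by total count only, 5 of the 11 fell and 3 rose, or 45.5% and 27.3%, against 19.6% and 46% of all genes.

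Srsf1, the founding SR protein, had the largest fall of the family. Its gene lies at chr11:88047373-88053755 (plus strand, GRCm38). It measured 210, 225 and 238 CPM in KD, against 366, 353 and 357 CPM in CON. The groups did not overlap, and edgeR gave a 1.6-fold fall (log2 fold change -0.68, SE 0.048, adjusted p = 8.95e-09). Srsf7, an SR protein with a zinc knuckle that also serves in mRNA export, fell 1.47-fold to 187 ± 9.04 CPM in KD, against 275 ± 8.2 CPM in CON (SD, n = 3 each). Its relative Srsf3, which shares the export role, fell 1.25-fold (log2 fold change -0.32) and was at -0.09, not past the threshold, with scaling by total count only.

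Srsf2, known as SC35 and long used to mark nuclear speckles, had 159, 154 and 131 CPM in KD, against 216, 215 and 204 CPM in CON. KD-3 was the lowest library. The fall was 1.43-fold (log2 fold change -0.52, edgeR adjusted p = 2.8e-06), and -0.44 without KD-3. Srsf2 shares 748 exonic bases with Mettl23 and Mfsd11 on the opposite strand.

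Srsf4, Srsf5 and Srsf6 form a related group with a pair of recognition motifs each, and they did not move together. Srsf6 had 249, 250 and 246 CPM in KD, against 335, 335 and 326 CPM in CON, a 1.34-fold fall (edgeR adjusted p = 2.02e-07). Srsf5 fell 1.18-fold (log2 fold change -0.24) and stood at -0.01 with scaling by total count only. Srsf4 had 33.1, 32.8 and 31.8 CPM in KD, against 25.3, 30.5 and 28.8 CPM in CON. Its groups did not overlap, but the rise of 1.16-fold was small (log2 fold change 0.21, SE 0.075, edgeR adjusted p = 0.0237). It lost this call without CON-1 (adjusted p = 0.167 in edgeR), CON-3 (0.0555), KD-1 (0.0635) or KD-2 (0.0761). It was lost in DESeq2 as well (adjusted p = 0.0522). Of its 3561 exonic bases, 1532 are shared with Gm12992 on the opposite strand.

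Srsf11, a larger SR-related protein, fell 1.13-fold (log2 fold change -0.18) but was at 0.05, not past the threshold, with scaling by total count only. Srsf9, a close relative of Srsf1, did not pass, with 133, 128 and 115 CPM in KD and 120, 122 and 119 CPM in CON. It passed as higher without KD-3 (log2 fold change 0.11, edgeR adjusted p = 0.015) and with scaling by total count only (log2 fold change 0.29).

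Srsf12 had the largest rise of the 44 genes and the lowest mean CPM. It encodes an SR protein related to Srsf10, and both have been described as repressors of splicing. Srsf12 had 8.52, 7.62 and 8.83 CPM in KD (357, 326 and 323 counts), against 2.67, 2.97 and 3.5 CPM in CON (91, 108 and 114 counts). Every KD library exceeded every CON library. The rise was 2.73-fold (log2 fold change 1.45, SE 0.138, edgeR adjusted p = 2.16e-07). Srsf10 moved the other way, with 102, 102 and 120 CPM in KD, against 144, 141 and 142 CPM in CON, a 1.32-fold fall (edgeR adjusted p = 2.63e-05). Its fall was 0.17 on the log2 scale with scaling by total count only (edgeR adjusted p = 0.0208).

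Srsf12 and Srsf10 lie on chromosome 4, and their promoter windows are shown because these relatives moved in opposite directions. Qk, on chromosome 17, is set beside them as the strongest fall among genes with a window. Each window runs from 250 bases before to 50 bases after the RefSeq start (GRCm38.p6), on the gene's strand. Capitals mark GGGCGG or its complement CCGCCC, and CCAAT or its complement ATTGG.
Srsf12: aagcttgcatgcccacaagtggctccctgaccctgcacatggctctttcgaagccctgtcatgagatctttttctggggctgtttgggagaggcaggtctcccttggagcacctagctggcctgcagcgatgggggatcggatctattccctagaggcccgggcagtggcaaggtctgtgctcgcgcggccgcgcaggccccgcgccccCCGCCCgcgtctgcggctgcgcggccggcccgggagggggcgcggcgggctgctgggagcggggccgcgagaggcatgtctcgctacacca
Srsf10: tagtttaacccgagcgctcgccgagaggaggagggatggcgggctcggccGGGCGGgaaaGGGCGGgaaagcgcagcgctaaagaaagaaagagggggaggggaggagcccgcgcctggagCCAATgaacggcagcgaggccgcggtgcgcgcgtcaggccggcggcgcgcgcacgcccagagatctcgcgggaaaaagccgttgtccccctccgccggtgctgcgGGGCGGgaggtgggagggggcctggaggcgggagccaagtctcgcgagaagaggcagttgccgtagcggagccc
Qk: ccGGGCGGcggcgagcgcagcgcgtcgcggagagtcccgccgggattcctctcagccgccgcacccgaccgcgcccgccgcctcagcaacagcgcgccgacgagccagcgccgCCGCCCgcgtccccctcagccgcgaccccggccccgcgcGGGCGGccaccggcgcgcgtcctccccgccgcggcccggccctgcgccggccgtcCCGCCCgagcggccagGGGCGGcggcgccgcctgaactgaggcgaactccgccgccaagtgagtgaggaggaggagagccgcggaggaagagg

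The windows are chr4:33209022-33209321 (plus strand) for Srsf12, chr4:135855821-135856120 (plus strand) for Srsf10 and chr17:10319312-10319611 (minus strand) for Qk. On GENCODE M21 the genes begin before these windows, at 33208991 for Srsf12, 135855747 for Srsf10 and 10319854 for Qk, so each window lies inside the annotated gene and holds no base upstream of that start. The Sp1 letters GGGCGG occur 1, 3 and 5 times in the Srsf12, Srsf10 and Qk windows, counted on both strands. The windows hold 26, 38 and 57 CpG pairs and 69, 71.3 and 81.7% GC in the same order. Of the 44 genes, 39 had at least 1 window in the RefSeq-based table, and the other 5 are Esrp1, Esrp2, Hnrnpll, Hnrnpul2 and U2af2. Over their 54 windows, the median was 66.8% GC and 30 CpG pairs, against 52.7% and 7 over all 32851 windows. GGGCGG was in 81.5% of the windows of these genes and in 35.7% of all windows. The TATA letters TATAAA were in 9.26% and 13.6%, CCAAT in 50% and 37.4%, the ETS letters CCGGAAG in 18.5% and 8.86%, the Nrf1 letters GCATGCGC in 7.41% and 2.71%, the E-box CACGTG in 11.1% and 7.15%, and the ATF4-CEBP letters TGATGNAA in 5.56% and 3.97%. Each of the 7 was sought on both strands. The part of GC content in these shares was not tested, and a match describes the letters alone.

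Among hnRNP genes, 19 of 20 fell and Hnrnph2 rose, or 95% and 5%, against 30.8% and 32.2% of all genes tested. Of all tested genes averaging at least 20 FPKM, as most hnRNP genes do, 54.8% fell and 25.2% rose. The summed level of the hnRNP genes was 7682, 7759 and 8377 CPM in KD, against 11153, 11035 and 11138 CPM in CON. As a share of raw counts, which does not use TMM, that was 0.829, 0.84 and 0.907% in KD, against 1.03, 1.02 and 1.03% in CON. All 3 KD libraries lay below the CON libraries on either scale. Under scaling by total count only, 14 of the 20 fell, 1 rose and 5 did not pass. The shares that fell and rose were 70% and 5%, against 19.6% and 46% of all genes.

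The largest falls were those of Hnrnph3, Hnrnpu and Hnrnpf. Hnrnpu, also called SAF-A, binds nuclear RNA and chromatin and is part of the nuclear scaffold. Its gene lies at chr1:178321108-178337797 (minus strand, GRCm38). It had 773, 785 and 857 CPM in KD, against 1458, 1426 and 1449 CPM in CON. The fall was 1.79-fold (log2 fold change -0.84, SE 0.043, edgeR adjusted p = 2.04e-10), and -0.61 with scaling by total count only. Hnrnpu shares 804 exonic bases with Cox20 on the opposite strand.

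Hnrnpf, Hnrnph1, Hnrnph2 and Hnrnph3 encode the F/H group, which binds runs of G. Hnrnph3 had 38.8, 42.3 and 47.1 CPM in KD, against 75.7, 76.5 and 80.4 CPM in CON, a 1.81-fold fall (edgeR adjusted p = 2.57e-08). Hnrnpf had 392, 384 and 417 CPM in KD, against 688, 705 and 703 CPM in CON, a 1.76-fold fall (edgeR adjusted p = 2.17e-10). Hnrnph1 had 222, 228 and 250 CPM in KD, against 372, 351 and 363 CPM in CON, a 1.55-fold fall (edgeR adjusted p = 2.25e-08). These 3 genes showed no overlap between groups, and KD-3 was the highest KD library for each. Hnrnph2, the X-linked member, differed in direction, with 69.8, 70.8 and 81.6 CPM in KD and 62.2, 58.2 and 62.1 CPM in CON. Its rise was 1.22-fold (log2 fold change 0.28, SE 0.064, edgeR adjusted p = 0.00124), and 0.20 on the log2 scale without KD-3.

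**Figure D3:**
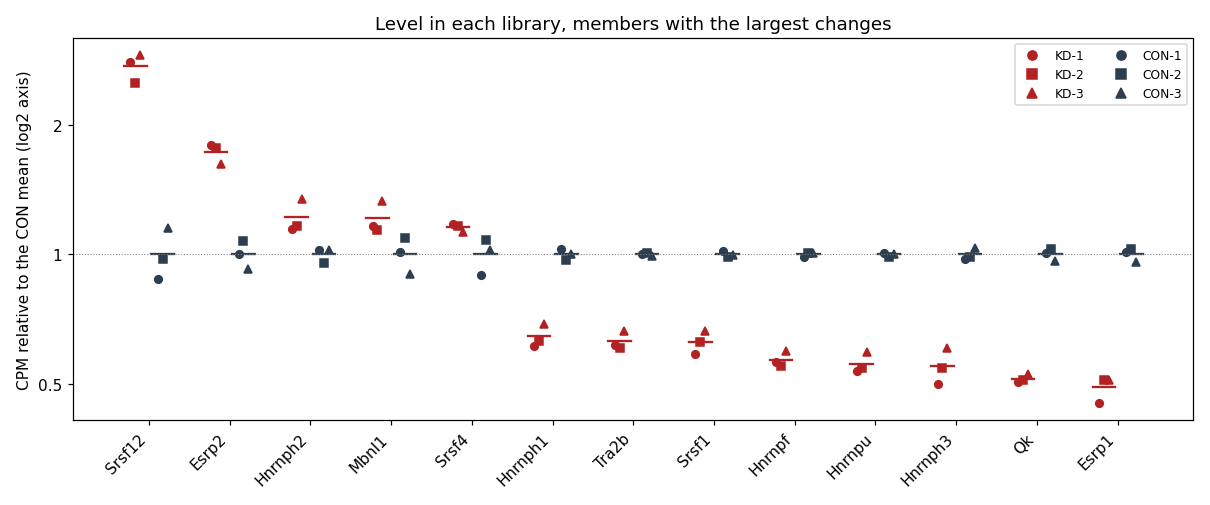
CPM in each library over the CON mean of the gene (y axis, log2 scale) for 13 genes with the largest rises and falls, with KD in red on the left of each pair and CON in dark blue on the right. Horizontal lines are group means of 3 libraries. The KD points lie above the CON points for the first 5 genes and below them for the other 8.

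The A/B group fell by smaller amounts. These proteins, of which Hnrnpa1 is the best known, bind silencers in exons and introns. Hnrnpa1 had 997, 995 and 1184 CPM in KD, against 1310, 1260 and 1276 CPM in CON, a 1.21-fold fall (log2 fold change -0.28, edgeR adjusted p = 0.000533). It stood at -0.05 with scaling by total count only, not past the threshold. Hnrnpa2b1 fell 1.34-fold and Hnrnpa3 fell 1.39-fold. Hnrnpab fell 1.45-fold, with 397 ± 9.45 CPM in KD and 577 ± 33.5 CPM in CON (SD, n = 3 each).

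Hnrnpa0, a member of the same group that binds AU-rich RNA, had 482, 456 and 307 CPM in KD, against 548, 605 and 583 CPM in CON. KD-3 was far below the other KD libraries. The fall was 1.39-fold (log2 fold change -0.48, SE 0.133, edgeR adjusted p = 0.00917), and -0.31 without KD-3. It did not pass with scaling by total count only (adjusted p = 0.11 in edgeR), nor with no filter on low counts (0.196).

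The remaining hnRNPs fell too. Hnrnpk, which binds C-rich RNA, fell 1.44-fold, with 629 ± 37.8 CPM in KD and 907 ± 26.1 CPM in CON (SD, n = 3 each). Hnrnpl and Hnrnpll bind CA-rich RNA and fell 1.35-fold and 1.5-fold. Hnrnpc, which packages transcripts and binds U tracts, fell 1.34-fold, Hnrnpr 1.3-fold and Hnrnpm 1.26-fold. Hnrnpul2, a relative of Hnrnpu, fell 1.33-fold. Hnrnpul1 fell 1.17-fold and Hnrnpdl 1.12-fold, but with scaling by total count only they stood at 0.00 and 0.07 on the log2 scale, not past the threshold. Hnrnpd, or AUF1, a regulator of AU-rich mRNAs, fell 1.24-fold and did not pass under that scaling (log2 fold change -0.08).

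The other 13 splicing factors were mixed, with 7 lower, 2 higher and 4 not past the threshold. The shares lower and higher were 53.8% and 15.4%, against 30.8% and 32.2% of all genes tested. Of all tested genes averaging at least 20 FPKM, 54.8% were lower and 25.2% higher. Under scaling by total count only, 5 of the 13 were lower and 5 higher, or 38.5% each, against 19.6% and 46% of all genes.

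The epithelial splicing regulators moved in opposite directions. Esrp1 and Esrp2 are related proteins that favour epithelial exons. Esrp1 had 31.5, 35.7 and 35.7 CPM in KD, against 70.5, 71.7 and 67 CPM in CON, a 2.03-fold fall (log2 fold change -1.02, SE 0.064, edgeR adjusted p = 1.86e-09). Esrp2 had 43.2, 42.6 and 39.1 CPM in KD, against 24.1, 25.9 and 22.3 CPM in CON, a 1.73-fold rise (log2 fold change 0.79, SE 0.073, edgeR adjusted p = 1.56e-07). Neither gene's groups overlapped. Esrp1 lies at chr4:11331933-11386783 and Esrp2 at chr8:106130319-106136974, both on the minus strand (GRCm38). Esrp2 shares 338 exonic bases with Nfatc3 and 1810019D21Rik on the opposite strand, and Esrp1 shares 127 with Gm26663.

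Qk, which encodes the STAR-domain protein quaking (chr17:10202601-10319854, minus strand, GRCm38), was the next largest fall. It had 147, 148 and 153 CPM in KD, against 293, 298 and 280 CPM in CON. The groups were far apart, and the fall was 1.95-fold (log2 fold change -0.96, SE 0.044, edgeR adjusted p = 5.83e-11). Muscleblind proteins are known to hold back the exon choices typical of embryonic stem cells. Mbnl1 had 16.7, 16.3 and 19.1 CPM in KD, against 14.5, 15.6 and 12.9 CPM in CON, a 1.21-fold rise (edgeR adjusted p = 0.0215). This call was lost without KD-3 (adjusted p = 0.0637 in edgeR), CON-1 (0.0575) or CON-3 (0.121). Without CON-1 or without CON-3, 3 of the 44 genes rose instead of 5, since Srsf4 and Mbnl1 were lost. Mbnl2 did not pass, at 72.7 ± 3.37 CPM in KD and 78.2 ± 4.29 CPM in CON (SD, n = 3 each, edgeR adjusted p = 0.121).

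Tra2a and Tra2b, the mammalian Transformer-2 proteins that activate exons through GAA-rich enhancers, both fell. Tra2b had 181, 178 and 195 CPM in KD, against 294, 296 and 290 CPM in CON, a 1.59-fold fall (edgeR adjusted p = 4.94e-09). Tra2a fell 1.32-fold (log2 fold change -0.40).

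Factors of splice-site recognition moved unequally. U2af2, which binds the polypyrimidine tract, fell 1.41-fold, with 366 ± 11.7 CPM in KD and 517 ± 17.1 CPM in CON (SD, n = 3 each). Its partner U2af1, which contacts the AG of the acceptor site, did not pass, with 151, 145 and 157 CPM in KD and 154, 152 and 155 CPM in CON. U2af1 was higher (log2 fold change 0.20) with scaling by total count only. Sf3b1, the branch-site subunit of the U2 particle, fell 1.19-fold, and stood at -0.03 under that scaling. Tardbp, which encodes TDP-43, a protein that binds UG repeats and represses cryptic exons, fell 1.22-fold and stood at -0.06. Neither Sf3b1 nor Tardbp passed the threshold under that scaling.

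The speckle coactivators Srrm1 and Srrm2 did not pass. Srrm2 had 816, 808 and 815 CPM in KD, against 780, 775 and 773 CPM in CON. Its groups did not overlap, but the difference was small (log2 fold change 0.07, edgeR adjusted p = 0.116). Srrm1 averaged 309 ± 17 CPM in KD and 316 ± 1.37 CPM in CON (SD, n = 3 each). When scaled by total count only, Srrm1 was higher (log2 fold change 0.20) and so was Srrm2 (0.30). Over the 44 genes, 34 had every KD library below every CON library and 6 had every KD library above. Among all tested genes, these shares were 32.8% and 34.4%.

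Ratios of related genes within a library do not depend on how libraries are scaled. Of 12 pairs set by sequence relationship, every pair had groups that did not overlap. Among all tested single genes, 32.8% had every KD library below every CON library and 34.4% above. Ratios of unrelated genes were not examined, so the count of pairs is no result about relatives. The two-sided exact permutation test gave p = 0.1 for each pair, the smallest that 3 against 3 libraries allow. The p-value of that test was also 0.1 after Benjamini-Hochberg adjustment over the 12 pairs. No pair can therefore pass 0.05 in this design.

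The sizes of these ratios differed widely. Esrp1 over Esrp2 was 0.502, 0.576 and 0.628 in FPKM in KD, against 2.02, 1.9 and 2.07 in CON. Esrp2 was thus the more abundant per length in all 3 KD libraries, and Esrp1 in all 3 CON libraries. The difference in the log2 count ratio, KD minus CON, was -1.81. Srsf10 over Srsf12 averaged 5.83 ± 0.404 in KD and 21.2 ± 3.02 in CON (SD, n = 3 each), a difference of -1.85. Hnrnph1 over Hnrnph2 averaged 2.36 ± 0.0588 in KD and 4.45 ± 0.0747 in CON, a difference of -0.92, and Srsf1 over Srsf9 averaged 0.521 ± 0.0712 in KD and 0.863 ± 0.0221 in CON, a difference of -0.74.

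Srsf4 over Srsf6 went the other way, at 0.177 ± 0.00264 in KD and 0.115 ± 0.0113 in CON (SD, n = 3 each), a difference of 0.63. The other 7 pairs differed less. Mbnl1 over Mbnl2 differed by 0.38, Tra2a over Tra2b by 0.27 and Srsf3 over Srsf7 by 0.23. Hnrnpul1 over Hnrnpul2 differed by 0.18, Hnrnpl over Hnrnpll by 0.15, Hnrnpa1 over Hnrnpa2b1 by 0.14 and Hnrnpd over Hnrnpdl by -0.16.

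**Figure D4:**
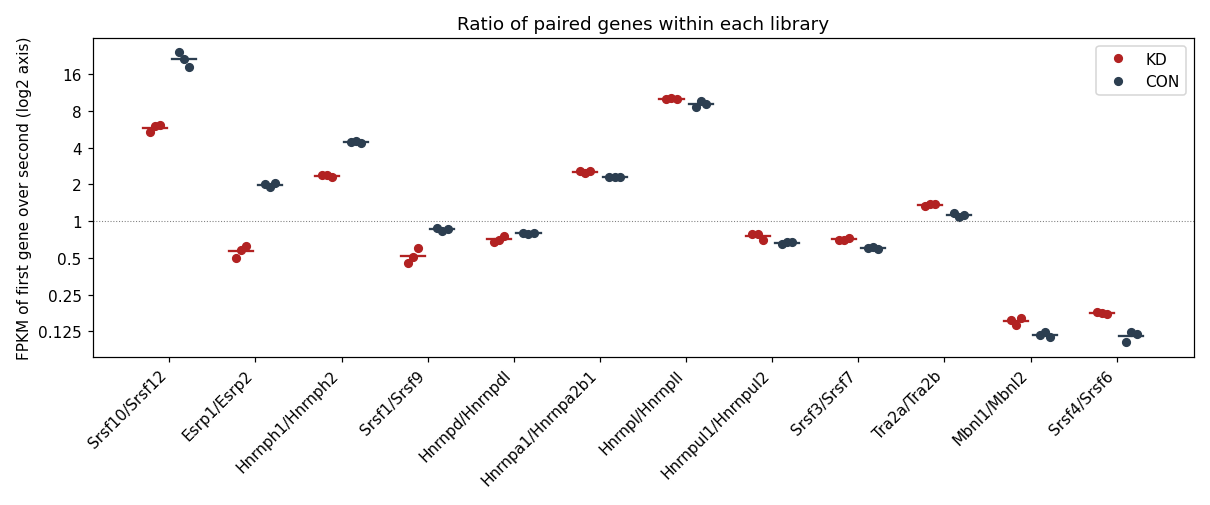
FPKM of the first gene over the second within each library (y axis, log2 scale) for 12 pairs of related splicing factors, ordered by the difference between groups. Points are libraries and lines are means, with KD in red on the left and CON in dark blue on the right. The dotted line marks equal levels, which only the Esrp1 over Esrp2 ratio crosses between groups.

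Other genes of the splicing apparatus gave a background for these changes. Of 27 hnRNPs and related proteins under other symbols, 20 fell and 2 rose, with a median log2 fold change of -0.46. As shares this was 74.1% and 7.41%, against 30.8% and 32.2% of all genes tested. Of all tested genes averaging 10 CPM or more, 41.3% fell and 34.5% rose. At an average of at least 20 FPKM, 54.8% fell and 25.2% rose. Ptbp3, Fubp3, Ybx1 and Pcbp2 had the smallest p among the falls, at 1.83-fold, 1.83-fold, 1.57-fold and 1.55-fold. The rises were Ptbp2, the neural relative of the polypyrimidine-tract protein (1.51-fold), and the cold-inducible Cirbp (1.19-fold). Scaled by total count only, 18 fell and 7 rose, or 66.7% and 25.9%, against 19.6% and 46% of all genes.

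SR proteins pass through cycles of phosphorylation and dephosphorylation, and the SR protein kinase gene Srpk1 fell 1.6-fold, with 113 ± 6.82 CPM in KD and 181 ± 0.425 CPM in CON (SD, n = 3 each). The nuclear kinase Clk1 fell 1.5-fold, while its relative Clk3 rose 1.21-fold. Of 33 tested SR kinases, import factors and SR-like cofactors, 19 fell and 3 rose, with a median of -0.17. The shares were 57.6% and 9.09%, against 30.8% and 32.2% of all genes tested. Of all tested genes averaging 10 CPM or more, 41.3% fell and 34.5% rose. At an average of at least 20 FPKM, 54.8% fell and 25.2% rose. With scaling by total count only, 6 fell and 10 rose, which is 18.2% and 30.3% of the list, against 19.6% and 46% of all genes under that scaling. Rbm39, an SR-like cofactor, fell 2.36-fold to 241 ± 15.5 CPM in KD, against 568 ± 19.7 CPM in CON. The RNA helicase gene Ddx39b fell 1.41-fold, and Ppp1r10 and Rsrc1 rose 1.18-fold and 1.24-fold.

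Of 77 genes of the snRNPs and the core spliceosome, 45 fell and 11 rose, with a median of -0.24. These are 58.4% and 14.3% of the list, against 30.8% and 32.2% of all genes tested. Of all tested genes averaging at least 20 FPKM, 54.8% fell and 25.2% rose. Prpf19, a subunit of the Prp19 complex, fell 2-fold, with 174 ± 8.65 CPM in KD and 346 ± 6.72 CPM in CON (SD, n = 3 each). Snrpn, Prpf3 and the branch-site protein gene Sf1 fell 1.76-fold, 1.65-fold and 1.52-fold. Prpf38a, Prpf18, Cherp and Prpf40b rose 1.39-fold, 1.25-fold, 1.24-fold and 1.23-fold. With scaling by total count only, 28 of the list fell and 27 rose. That is 36.4% and 35.1%, against 19.6% and 46% of all genes under that scaling. Without CON-2, 7 rose in place of 11.

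Of 34 tested genes of other alternative splicing regulators, 13 fell and 10 rose, with a median of -0.12. These are 38.2% and 29.4% of the list, near the 30.8% and 32.2% of all genes tested, so the counts are no result about the list. Rbpms2, Rbpms, Rbm25 and Khdrbs1 fell 2.27-fold, 2.07-fold, 1.67-fold and 1.44-fold. Among the rises, Celf6 rose 13.9-fold, with 8.94 ± 0.245 CPM in KD and 0.647 ± 0.152 CPM in CON (SD, n = 3 each). Celf3 rose 6.64-fold, and Srrm3, an activator of neuronal microexons, 5.49-fold. Srrm4 did not pass, with 5.59 CPM in KD and 5.75 CPM in CON. Celf2 rose 1.48-fold. Without KD-2, 6 rose in place of 10. With scaling by total count only, 9 fell and 14 rose, or 26.5% and 41.2%, against 19.6% and 46% of all genes.

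The authors' deposited table labels 2 of the 44 genes as changed, Esrp1 and Srsf12. Its log2 fold change runs CON over KD, and it gives 1.04 for Esrp1 and -1.44 for Srsf12. In the authors' deposited table, 37 of the 44 genes have an adjusted p under 0.05, against 32.6% of all its genes. Those 31641 genes include many that failed the filter on low counts used here, which all 44 passed. Of the 18019 genes that passed it, edgeR called 30.8% lower and 32.2% higher. Over all of its genes, that table labels 3.97% as up and 5.21% as down, in the direction CON over KD.

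Reads of some of these genes may be shared with other loci. On GENCODE M21, 16 of the 44 genes share exonic bases with a gene on the opposite strand, over 700 bases in 7 of them: Hnrnpab, Hnrnpf, Hnrnpr, Hnrnpu, Srsf2, Srsf4 and Tardbp. Hnrnpm shares 1169 exonic bases with March2 on the same strand. Near-identical copies (at least 95% identity over 200 bases) with counts of their own exist for 14 of the 44. The counts of the copies came to 4.65% of those of Hnrnpk and to at most 0.983% for each of the others. Reads that fit a gene and its copy equally well may have been dropped or split, which these counts cannot show.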

How the data were processed

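The authors deposited raw counts of reads per gene, FPKM per gene and library, and their own adjusted p-value and log2 fold change per gene, per the file headers. Per the submitters' processing notes, FastQC 0.11.9, STAR 2.5.3a, featureCounts and the build mm10 were used. The annotation, strand setting, treatment of multi-mapping reads and the authors' test have no statement in the sources used here. Columns were matched by treatment and number, and 26 symbols replaced by dates were restored from identifiers. Of counts from 1 to 20, 70 to 71.7% were even in each library, so mates of a pair may have been counted separately and low counts carry more error than their value shows.

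Counts were fitted in R 4.3.3 with edgeR 4.0.16: filterByExpr (18019 genes kept), TMM, robust quasi-likelihood F-test of KD against CON, and Benjamini-Hochberg adjustment over all genes tested. TMM factors were 1.08 to 1.084 in KD and 0.922 to 0.926 in CON. One count was worth 0.0253 to 0.0296 CPM before scaling, and depth limits precision by counting error only. The ratio tests add 1 to each count. Alternatives were scaling by total count, DESeq2 1.42.0, 2 other filters, a replicate block, halved counts and leaving out each library.

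The members, lists, pairs and tests were chosen with earlier results of these data known. Values per library are given for the 8 largest falls and 4 largest rises among called genes averaging 10 CPM or more, and for pairs called in opposite directions. Other per-library values, such as those of Srsf2, Hnrnpa0 and Srrm2, were added after their values were seen. Of each list, up to 4 called genes per direction with the smallest p are named, and Srrm4 was added beside Srrm3 after its values were seen. Promoters and their starts come from RefSeq (GRCm38.p6), positions from GENCODE M21 (GRCm38).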

Additional observations from a re-analysis of the deposited data

How the results depend on the processing

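Of the 44 genes, 34 fell under DESeq2, at least 1 CPM in 3 libraries, halved counts and the replicate block, 33 with no filter on low counts, and 24 with scaling by total count only. Leaving out each library gave 34 to 36. The number that rose, 5, became 9 with scaling by total count only, 4 in DESeq2 and 3 to 5 without a library. The median of -0.40 became -0.17 with scaling by total count only and ranged from -0.43 to -0.37 without a library. That scaling moves all genes up by a like amount, so genes just below 0 change sign by construction: Hnrnpdl (0.07), Hnrnpul1 (0.00), Mbnl2 (0.12), Srrm1 (0.20), Srsf11 (0.05) and U2af1 (0.20), of which Srrm1 and U2af1 passed as higher. Over all genes, it gave 3535 falls in place of 5543. For the lists, it gave 7 rises of other hnRNPs in place of 2, 6 falls and 10 rises of SR kinases and cofactors in place of 19 and 3, and 28 falls and 27 rises of core spliceosome genes in place of 45 and 11. Without a library, rises ranged from 7 to 12 for core spliceosome genes and from 6 to 12 for other regulators, and the cause was not tested. The groups of the 12 ratios do not overlap, so leaving out a library or a number block (3 pairs, no p below 0.25) could not turn their direction.

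The correlation of deviations from the group means was -0.409, 0.234 and -0.177 for same-numbered KD and CON libraries. For differently numbered libraries it ran from -0.36 to 0.456. Deviations from a mean of 3 libraries are tied to each other, so these values cannot show whether the numbers pair the libraries. With the replicate block, 34 of the 44 genes fell and 5 rose, and over all genes 5347 fell and 5559 rose. Srsf12 rested on the fewest reads of the 44, 91 to 357 counts a library.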
